A study of Homo sapiens with 6 samples.

Results

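TAGLN, ACTA2, CNN1, CNN2, MYL9, TPM1, TPM2, FLNA and FLNC encode contractile and actin-binding proteins, and SRF encodes a transcription factor known to control genes of this kind. These 10 genes were picked out by gene name among the 58735 genes of a gene-level RNA-seq table, which gave 10 of 10 names, and the names were selected on the measured expression values of these same libraries. Their differences between the groups are therefore given as a description, without p-values. The RNA came from Hep-G2, a long established line of human liver cancer cells that the labels describe as HCC tissue and hepatocytes. The sh-NC group (3 libraries) carried a negative control short hairpin and the sh-CLGN group (3 libraries) carried a short hairpin against CLGN, a chaperone of the endoplasmic reticulum. Both hairpins were delivered by lentivirus with puromycin selection, all libraries carry the same batch label (0DAY), and the labels name no further agent. Each group used 1 hairpin, so loss of CLGN cannot be told apart from another effect of that hairpin or of its culture. The labels do not say whether the 3 libraries of a group came from separate cultures, so p-values measure only the spread between these libraries, which may be technical.

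SRF is a transcription factor that binds the CArG box, a short element of CC, a run of A and T, and GG. It is known to work with partners of the myocardin family (MRTFA, MRTFB and myocardin), which are held back by free actin monomers and drive genes of the cytoskeleton and of smooth muscle, and with ternary complex factors such as ELK1, which drive immediate early genes after growth factor signals. TAGLN (transgelin, SM22-alpha), ACTA2 (smooth muscle actin) and CNN1 (calponin 1) are textbook markers of smooth muscle and myofibroblasts, whereas hepatocytes are not known for them.

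The promoter sequence shows which of these genes carry the element that SRF binds close to a start site. RefSeq windows on GRCh38.p14, from 250 bases before to 50 bases after a start site, were searched for 8 of the 10 genes (11 windows). No window was at hand for TAGLN and MYL9, so their promoters were not searched. A CArG box, searched as CC, 6 bases of A or T, and GG (a motif that reads the same way on both strands), lay in the windows of 3 of these 8 genes, SRF, CNN2 and FLNA, and 1.60% of all 27305 genes with a window held one (1.29% of 35116 windows). Genes of this kind are known to be under SRF, so the count is no test against that share. With up to 1 mismatch allowed, ACTA2 was added (4 genes), and 22.3% of all genes with a window held such a match. The 150 bases before the start site are printed 5′ to 3′ on the strand of the gene, with the CArG boxes in capitals for SRF, CNN2 and FLNA and the 1-mismatch matches in capitals for ACTA2. The SRF stretch lies at chr6:43171119-43171268 (plus strand), that of CNN2 at chr19:1026458-1026607 (plus strand), that of FLNA at chrX:154374635-154374784 (minus strand) and that of ACTA2 at chr10:88952774-88952923 (minus strand).
SRF: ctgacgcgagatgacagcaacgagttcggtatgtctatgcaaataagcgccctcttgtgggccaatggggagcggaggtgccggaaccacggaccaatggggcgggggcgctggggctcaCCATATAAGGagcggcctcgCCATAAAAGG
CNN2: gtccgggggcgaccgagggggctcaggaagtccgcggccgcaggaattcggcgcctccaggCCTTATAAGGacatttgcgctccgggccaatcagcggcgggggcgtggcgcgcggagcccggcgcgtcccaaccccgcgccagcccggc
FLNA: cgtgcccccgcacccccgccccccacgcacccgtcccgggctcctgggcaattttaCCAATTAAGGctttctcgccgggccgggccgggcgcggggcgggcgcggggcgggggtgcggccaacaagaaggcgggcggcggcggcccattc
ACTA2: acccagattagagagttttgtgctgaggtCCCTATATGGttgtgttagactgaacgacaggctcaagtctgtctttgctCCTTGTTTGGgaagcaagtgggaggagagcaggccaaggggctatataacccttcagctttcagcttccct

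The SRF stretch held a pair of CArG boxes, CCATATAAGG beginning 30 bases and CCATAAAAGG beginning 10 bases before the start site. CNN2 held CCTTATAAGG 89 bases before its start and FLNA held CCAATTAAGG 94 bases before its start. The ACTA2 matches began 121 bases (CCCTATATGG) and 71 bases (CCTTGTTTGG) before the start, and each departs from the searched pattern at 1 base. The windows of CNN1, TPM1, TPM2 and FLNC held neither an exact nor a 1-mismatch match, which says only that these letters are not in those windows. The motif TATAAA, searched on both strands, was found for 1 of the 8 genes (SRF, after its start site) against 14.0% of all genes with a window, and CATTCC for 2 (ACTA2 and FLNC) against 16.7%. A match is a description of the sequence and not a measured site of binding.

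The labels and the libraries were checked first. CLGN (ENSG00000153132, chr4:140388455-140427968, minus strand) was at 23.8 ± 2.54 FPKM (SD, n = 3) in sh-NC against 8.98 ± 0.453 FPKM (SD, n = 3) in sh-CLGN, lower in all 3 sh-CLGN libraries (log2 difference −1.31, SE 0.08, limma adjusted p = 8.35e-06). FPKM, the fragments of a gene scaled by its length and by the size of the library, was the deposited unit, and differences are of log2(FPKM + 1), which understates the change of low genes. Whole reads could be recovered for 100% of values, and a library held 14955816 to 16244639 reads. The correlation across genes between libraries was 0.988 to 0.992 within groups and 0.937 to 0.945 between groups. Among the 13074 genes that reached 1 FPKM in 3 or more libraries, 26.7% were higher and 39.0% lower in sh-CLGN with an adjusted p up to 0.05, and the median log2 difference was −0.08. With a log2 difference of at least 1 required as well, 404 were higher (3.09%) and 417 lower (3.19%), so 49.2% of those calls were higher. That share was 70.3% after rescaling to TPM (1002 higher, 424 lower), 72.0% after scaling by total reads (605 and 235) and 66.8% after removal of a GC trend (484 and 241). The same 1 was added to the TPM values, so that setting also changes the weight of this 1 for low genes. The effects of scaling and of the added 1 were not separated there. The library size behind the FPKM values was below the summed reads in all 3 sh-NC libraries and above them in all 3 sh-CLGN libraries, and scaling by total reads moved the median of all genes up by 0.16 (TPM 0.11).

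Of the 10 genes, 9 passed the expression filter and ACTA2 did not. TAGLN and CNN1 passed it only through the sh-CLGN libraries, since all their sh-NC values were below 1 FPKM. Of the 9, 8 were higher in sh-CLGN at the adjusted p alone (26.7% of all genes tested) and 1, SRF, was lower (39.0%). With the log2 threshold, 5 were higher, namely TAGLN, FLNC, CNN1, TPM2 and MYL9 (3.09% of all genes), and 0 were lower (3.19%). In 8 genes all sh-CLGN libraries lay above all sh-NC libraries (28.7% of all genes), and in SRF all lay below (41.5%). Because the names were chosen on this contrast, these counts describe the choice. The log2 differences of the 10 genes ran from −0.80 (SRF) to 3.54 (TAGLN), with a median of 0.89.

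**Figure D1:**
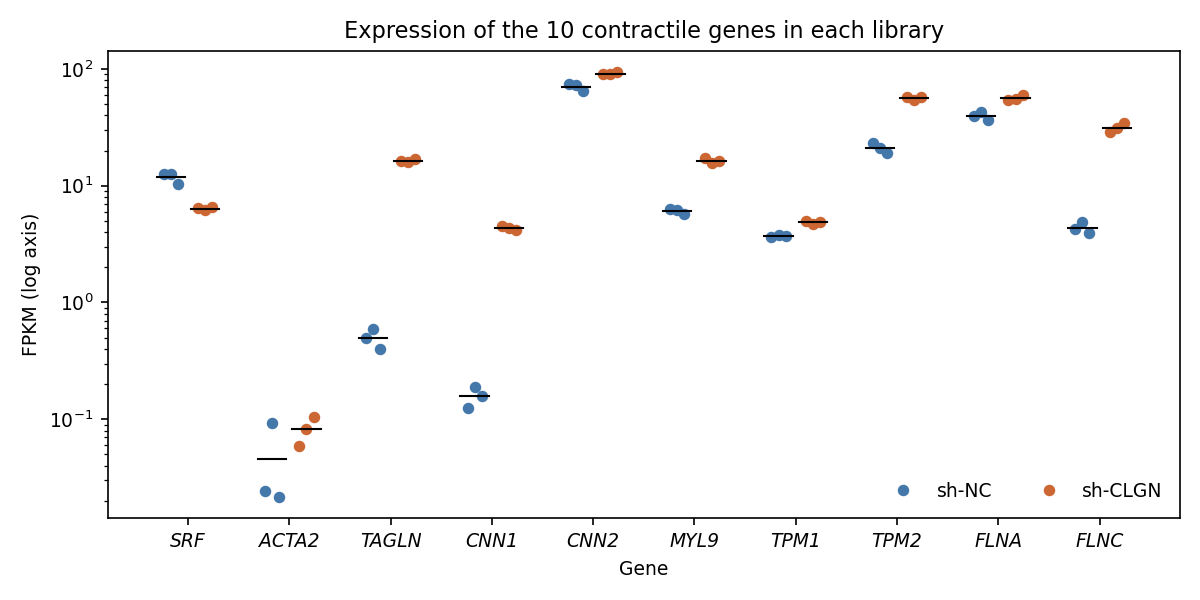
FPKM of each of the 10 genes (log axis) in the 3 sh-NC libraries (blue) and the 3 sh-CLGN libraries (orange), with a line at each group mean. TAGLN and CNN1 lie below 1 FPKM in sh-NC and at 15.8 to 16.9 and 4.14 to 4.49 FPKM in sh-CLGN, SRF is lower in sh-CLGN, and the ACTA2 libraries overlap near the limit of detection.

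SRF (ENSG00000112658, chr6:43171299-43181507, plus strand), the regulator of the set, had 12.5, 12.7 and 10.4 FPKM in the sh-NC libraries and 6.41, 6.20 and 6.53 FPKM in the sh-CLGN libraries. The groups did not overlap, and the sh-CLGN libraries lay close together. The mean was 11.9 ± 1.29 FPKM in sh-NC against 6.38 ± 0.168 FPKM in sh-CLGN (SD, n = 3 each), 1.86-fold lower, with a log2 difference of −0.80 (SE 0.08). It was the only one of the 10 genes that was lower in sh-CLGN. The values rest on 674 to 778 reads in sh-NC against 427 to 457 reads in sh-CLGN.

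ACTA2 (ENSG00000107796, chr10:88935074-88991339, minus strand), the smooth muscle actin, was barely detected. It had 1, 4 and 1 reads in the sh-NC libraries and 3, 4 and 5 reads in the sh-CLGN libraries, at or near the floor of 3 reads, and the groups overlapped. No fold is given, and a difference was not detectable at this depth. The gene shares its span with STAMBPL1, ACTA2-AS1 and FAS on the other strand. FAS, the death receptor gene, had read counts of 2, 0 and 1 in sh-NC against 10, 16 and 9 in sh-CLGN, and ACTA2-AS1 read counts were 0, 2 and 1 in sh-NC against 6, 18 and 8 in sh-CLGN. The strand setting of the counting is not given in the sources used here, so reads of overlapping genes on opposite strands cannot be told apart.

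In the calponin family, which binds actin filaments, TAGLN (ENSG00000149591, chr11:117199321-117204782, plus strand) had the highest difference of the set. Its sh-NC libraries held 0.494, 0.595 and 0.396 FPKM (27, 34 and 24 reads), and its sh-CLGN libraries 16.4, 15.8 and 16.9 FPKM (1088, 1017 and 1067 reads). The group means were 0.495 ± 0.0993 and 16.4 ± 0.517 FPKM (SD, n = 3 each), a ratio of 33.1 and a log2 difference of 3.54 (SE 0.07). The lowest sh-CLGN library was far above the highest sh-NC library, and the 3 libraries of sh-CLGN differed little. In bulk RNA, fewer cells of a type and less RNA per cell cannot be told apart, nor can more cells and more RNA per cell.

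CNN1 (ENSG00000130176, chr19:11538717-11550323, plus strand), which restrains actomyosin ATPase in smooth muscle, followed the same order of groups at a lower level. It had 0.124, 0.190 and 0.157 FPKM in sh-NC, from 5, 8 and 7 reads, and 4.49, 4.33 and 4.14 FPKM in sh-CLGN, from 220, 205 and 193 reads. The ratio of the means was 27.5 and the log2 difference 2.20 (SE 0.08), and the small sh-NC read numbers limit the precision of the ratio. CNN2 (ENSG00000064666, chr19:1026581-1039068, plus strand), the calponin of non-muscle cells, was already the most expressed of the 10 genes per length in sh-NC, at 73.8, 73.4 and 64.4 FPKM, and had 90.1, 90.1 and 94.3 FPKM in sh-CLGN. Its groups did not overlap either, but the ratio was 1.30 (log2 difference 0.37, SE 0.06).

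MYL9 (ENSG00000101335, chr20:36541484-36551447, plus strand) encodes a regulatory light chain of smooth muscle and non-muscle myosin. Its sh-NC libraries had 6.38, 6.22 and 5.77 FPKM and its sh-CLGN libraries 17.2, 15.7 and 16.4 FPKM, with no overlap. The means were 6.12 ± 0.313 and 16.4 ± 0.750 FPKM (SD, n = 3 each), a ratio of 2.68 and a log2 difference of 1.29 (SE 0.06). MYL9 lies inside the antisense gene DLGAP4-AS1, which had 6 to 20 reads in sh-NC against 32 to 36 reads in sh-CLGN, against 251 to 256 and 724 to 821 reads for MYL9.

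The tropomyosins, which wind along the actin filament, differed by unequal amounts. TPM2 (ENSG00000198467, chr9:35681992-35690121, minus strand) had 23.2, 21.0 and 19.1 FPKM in sh-NC against 58.1, 53.8 and 57.5 FPKM in sh-CLGN, a ratio of 2.67 (log2 difference 1.38, SE 0.07). TPM1 (ENSG00000140416, chr15:63042632-63071915, plus strand) had 3.61, 3.76 and 3.71 FPKM in sh-NC against 5.04, 4.69 and 4.86 FPKM in sh-CLGN, a ratio of 1.32 (log2 difference 0.32, SE 0.06). Neither gene's groups overlapped. The gene length behind the TPM1 value was 12876 bases over all its annotated exons, so a level per length that counts only the expressed isoforms may differ.

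The filamins cross-link actin filaments. FLNC (ENSG00000128591, chr7:128830377-128859274, plus strand), the filamin of striated muscle, had 4.26, 4.87 and 3.94 FPKM in sh-NC against 28.8, 31.0 and 34.3 FPKM in sh-CLGN. Its means were 4.36 ± 0.473 and 31.4 ± 2.72 FPKM (SD, n = 3 each), a ratio of 7.20 and a log2 difference of 2.60 (SE 0.09), the second of the set on that scale. FLNA (ENSG00000196924, chrX:154348524-154374638, minus strand), the widely expressed filamin, had 39.9, 42.8 and 36.9 FPKM in sh-NC against 53.9, 55.0 and 59.9 FPKM in sh-CLGN, a ratio of 1.41 (log2 difference 0.49, SE 0.07). The antisense gene FLNC-AS1 held 0 reads in all sh-NC libraries, with 2 to 4 in sh-CLGN, against 4541 to 5133 reads for FLNC.

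The order of the levels per length changed with the group. In sh-NC it ran CNN2, FLNA, TPM2, SRF, MYL9, FLNC, TPM1, TAGLN, CNN1 and ACTA2 from high to low, and the libraries of neighbours in that order did not overlap. In sh-CLGN it ran CNN2, TPM2, FLNA, FLNC, MYL9, TAGLN, SRF, TPM1, CNN1 and ACTA2. There TPM2 and FLNA overlapped, as did MYL9 and TAGLN. SRF, above FLNC, MYL9 and TAGLN in sh-NC, lay below all of them in sh-CLGN.

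Relatives of the same protein families were listed beside the 10 genes. This list and all lists below were chosen with earlier results of these data known. Their counts and adjusted p-values are therefore a description and not independent tests. Of 14 relatives, 10 passed the filter. At the same adjusted p, 5 were higher (26.7% of all genes tested), 4 lower (39.0%) and 1 did not pass the test. Of the 10, 0 reached a log2 difference of 1 in either direction. Among all genes tested, 3.09% (higher) and 3.19% (lower) did so with the adjusted p, so a count of 0 of 10 is near that share. Their median log2 difference was 0.13, against −0.08 over all genes tested. TAGLN2, the transgelin of non-muscle cells, fell from 109 ± 7.68 to 73.0 ± 2.18 FPKM (SD, n = 3 each; log2 difference −0.58, limma adjusted p = 9.06e-05). CNN3, the acidic calponin, rose by 0.29 (adjusted p = 0.000996). Of the actins, the cytoplasmic forms ACTB (log2 difference −0.46, adjusted p = 0.000215) and ACTG1 (−0.43, adjusted p = 0.000241) fell, though ACTG1 lost its call with quantile normalization (−0.098). The muscle actins ACTA1 and ACTC1 had 0 to 5 reads in a library and ACTG2 had 0 in all 6. Among light chains, MYL6 rose by 0.40 (adjusted p = 0.000401) and MYL12A by 0.19 (adjusted p = 0.00871), and MYL12B had a difference of 0.07 that did not pass the test. MYL12B passed as higher with TPM (0.20), total read scaling (0.27), quantile normalization (0.38) and the GC trend removed (0.22). MYL6B rose by 0.23 (adjusted p = 0.0153), but its call was lost without sh-CLGN replicate 3, where the difference was 0.21. TPM4 rose by 0.35 (adjusted p = 0.0002) while TPM3 fell by 0.30 on the log2 scale (adjusted p = 0.000603), a call that was lost with total read scaling (−0.10) and quantile normalization (−0.0024).

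**Figure D2:**
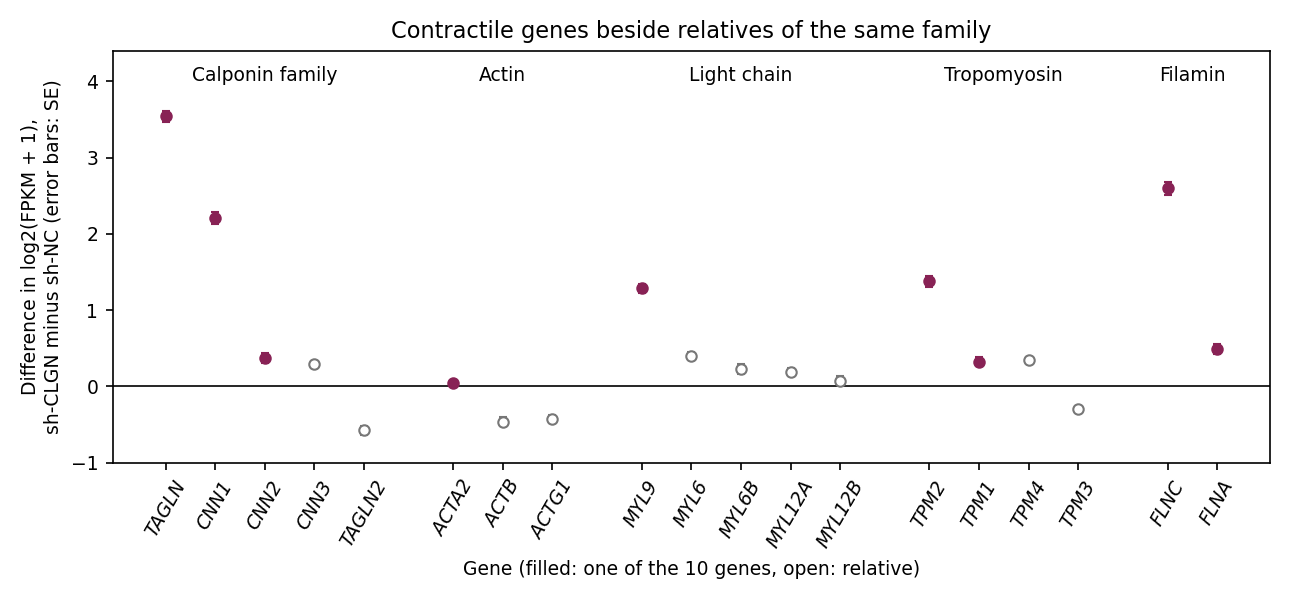
Difference in log2(FPKM + 1), sh-CLGN minus sh-NC, with its standard error, for the members of the set other than SRF (filled) and their tested relatives (open), by protein family (ACTA2 was outside the filter and has no error). TAGLN, CNN1, MYL9, TPM2 and FLNC stand above 1, while every relative shown lies between −0.58 and 0.40. The filled genes were chosen on this contrast, so their place above the relatives describes the choice.

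The composition of each family was then expressed as a share of its summed FPKM. TAGLN made up 0.190% ± 0.0368 of the calponin family in sh-NC against 5.79% ± 0.212 in sh-CLGN (SD, n = 3 each), while TAGLN2 went from 42.0% to 25.8%. FLNC made up 9.84% of the summed FLNA and FLNC level in sh-NC and 35.8% in sh-CLGN, with FLNA as the rest. TPM2 made up 13.8% of the tropomyosins in sh-NC and 30.2% in sh-CLGN, and TPM3 went from 53.0% to 35.1%. MYL9 went from 2.55% to 6.09% of the regulatory light chains (MYL9, MYL12A and MYL12B). In each of these groups the muscle-type gene took a larger share in every sh-CLGN library than in any sh-NC library, and the non-muscle relatives still held most of the summed FPKM. The genes with larger shares were chosen on this contrast, so the shares describe that choice as well. The actins kept their shares, with ACTB at 62.0% and 61.5% and ACTA2 under 0.01% in every library, while the summed actin FPKM went from 1472 ± 79.2 to 1075 ± 14.9 (SD, n = 3 each). Summed levels of the calponin family (260.1 to 282 FPKM), the light chains (240.3 to 269 FPKM), the tropomyosins (153 to 187 FPKM) and FLNA with FLNC (44.2 to 87.6 FPKM) were higher in each sh-CLGN library than in any sh-NC library.

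**Figure D3:**
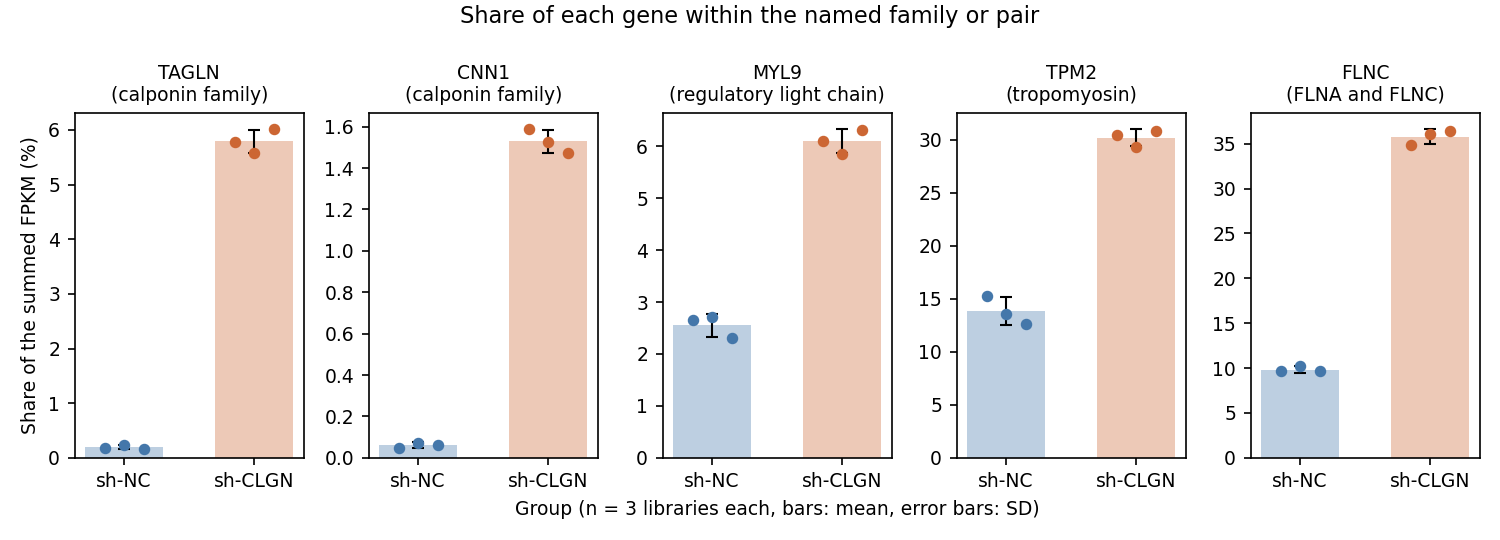
Share of the summed FPKM of the named family or pair (%) taken by TAGLN, CNN1, MYL9, TPM2 and FLNC in each library (points), with the group mean (bar, axis from 0) and SD (error bar), n = 3 per group. All 5 shares are higher in every sh-CLGN library, for genes chosen on this contrast, and the axes differ between panels.

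The partners of SRF and the small GTPase pathway that governs the actin pool split in direction. Of 17 listed genes, 14 were tested, with 6 higher, 6 lower and 2 not passing, and a median of 0.13, beside the same 26.7% and 39.0% of all genes. MRTFA fell (10.2 ± 0.274 to 7.37 ± 0.395 FPKM, SD, n = 3 each; log2 difference −0.42, adjusted p = 0.000363), MRTFB had a difference of 0.14 that did not pass (0.26 and past the test with total read scaling), and MYOCD, the myocardin gene, had 0 reads in all 6 libraries. RHOB, a small GTPase that is itself induced by stimuli, had the largest difference of the list and fell from 141 ± 5.23 to 46.9 ± 0.514 FPKM (log2 difference −1.57, adjusted p = 6.56e-07). RHOC, its relative, rose by 0.83 (adjusted p = 3.86e-05), whereas RHOA fell by 0.51 on the log2 scale (adjusted p = 3.71e-05). The formin DIAPH1, which polymerises actin, fell by 0.51 on that scale too (adjusted p = 0.000118). The kinase ROCK2 rose by 0.47 (adjusted p = 0.00107) and the ternary complex factor ELK4 by 0.46 (adjusted p = 0.000651).

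Of 17 other genes of the cytoskeleton known as SRF targets, 15 were tested, 5 were higher, 2 lower and 8 did not pass, with a median of 0.04, beside 26.7% higher and 39.0% lower among all genes tested. LIMA1, which bundles actin, rose from 9.09 ± 0.669 to 20.2 ± 0.110 FPKM (log2 difference 1.07, adjusted p = 5.7e-06), and FILIP1L rose by 1.02 (adjusted p = 1.14e-05). The focal adhesion gene ZYX fell by 0.88 on the log2 scale (adjusted p = 0.000133) while the adaptor gene PDLIM7 rose by 0.88 (adjusted p = 0.000274). The count past the adjusted p was 13 after scaling by total reads and 15 after quantile normalization, in place of 7. The calls gained with total read scaling were all higher in sh-CLGN. Those gained with quantile normalization were higher too, except FHL2 (−0.42). These scalings also moved the median of all genes up, by 0.16 and 0.06.

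Of 9 immediate early genes that SRF is known to drive with ternary complex factors, 6 were tested, and 6 were lower in sh-CLGN (39.0% of all genes tested), 2 of them by a log2 difference of at least 1, with a median of −0.77. EGR1, a zinc finger factor, went from 20.6, 19.2 and 17.8 FPKM in sh-NC to 1.90, 2.53 and 2.55 FPKM in sh-CLGN (log2 difference −2.61, SE 0.09, adjusted p = 1.32e-06). JUNB, an AP-1 subunit, went from 57.6 ± 8.22 to 20.8 ± 1.18 FPKM (log2 difference −1.42, adjusted p = 1.57e-05). IER2 fell by 0.85 (adjusted p = 8.51e-06) and NR4A1, an orphan nuclear receptor gene, by 0.70 (adjusted p = 0.000324) on the log2 scale. No sh-CLGN library reached the lowest sh-NC library in any of the 6, as was so for 41.5% of all genes tested. FOS passed the filter only through its sh-NC libraries (1.62 to 2.22 FPKM, against 0.528 to 0.976 in sh-CLGN), so its direction was fixed. EGR2, EGR3 and FOSB were not tested and their libraries overlapped, with FOSB at 0.374 ± 0.103 FPKM in sh-NC against 0.411 ± 0.0335 in sh-CLGN (SD, n = 3 each).

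**Figure D4:**
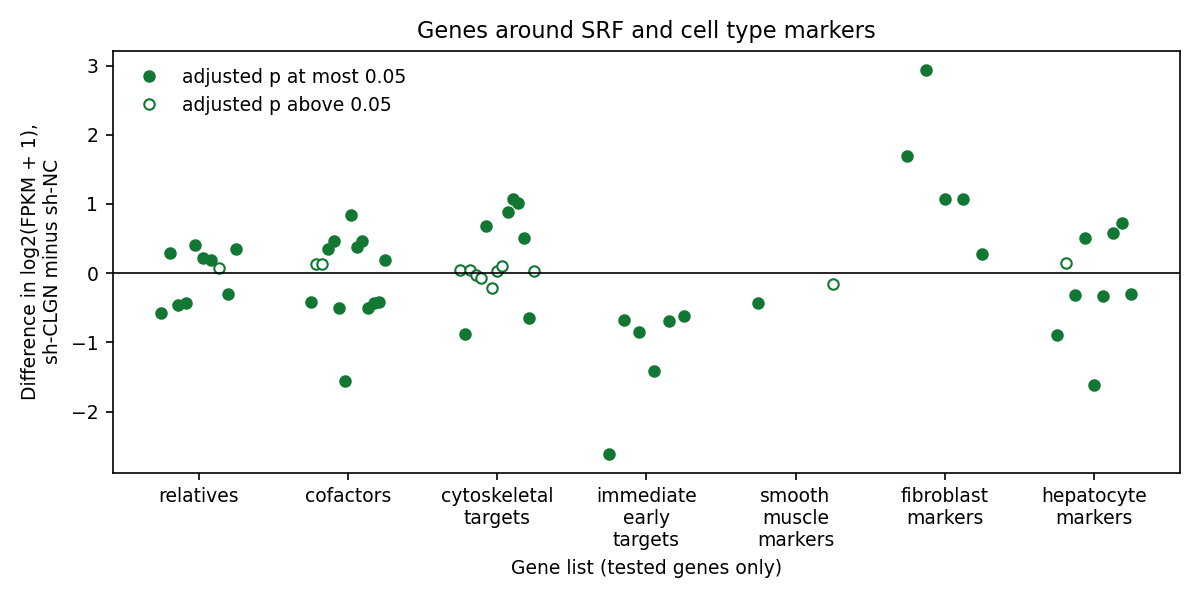
Difference in log2(FPKM + 1), sh-CLGN minus sh-NC, of every tested gene in 7 lists around the 10 genes (points filled where the limma adjusted p is at most 0.05). All 6 tested immediate early genes lie below 0 and all 5 tested fibroblast markers above, but FOS passed the filter only through sh-NC and COL1A1, COL3A1 and LUM only through sh-CLGN, whereas the relatives, cofactors and cytoskeletal targets lie on both sides. The lists were chosen with earlier results of these data known, so the calls are a description.

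Markers of other cell types were measured beside these results. The hepatocyte markers were all detected, 9 of 9 past the filter, with summed levels of 7069 to 7306 FPKM in sh-NC against 7171 to 7635 FPKM in sh-CLGN. These sums hold opposite changes of their 2 largest terms. AFP went from 2670 ± 105 to 3782 ± 145 FPKM and ALB from 2007 ± 70.9 to 1076 ± 27.7 FPKM (SD, n = 3 each). Of the 9 markers, 3 rose, 5 fell and 1 did not pass, among them TF (transferrin, log2 difference −1.62, adjusted p = 4.15e-07), ALB (albumin, −0.90, adjusted p = 7.88e-06), FGB (a fibrinogen chain, 0.72, adjusted p = 2.98e-05) and TTR (transthyretin, 0.58, adjusted p = 0.000167). The smooth muscle markers were mostly near 0. ACTG2, KCNMB1 and MYOCD had 0 reads in every library, DES had 0 to 5 and LMOD1 0 to 7. SYNPO2 had 3, 4 and 3 reads in sh-NC against 14, 4 and 13 in sh-CLGN, and MYH11, the smooth muscle myosin heavy chain, had 25 to 33 reads in sh-NC against 19 to 24 in sh-CLGN. Of 9 listed, 2 were tested, of which SMTN fell (−0.44, adjusted p = 0.00196) and MYLK had −0.16 without passing (it passed with quantile normalization, −0.23, voom, −0.22, and no trend). The summed level was 16.8 to 20.1 FPKM in sh-NC against 13.5 to 14.7 FPKM in sh-CLGN. SMTN alone held most of that sum (15.6 ± 1.67 against 11.2 ± 0.623 FPKM, SD, n = 3 each), so it says little of the other markers. Neither of the 2 tested markers was called higher beside TAGLN, CNN1 and MYL9. The other listed markers were outside the filter, so no increase could be called in them.

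Some fibroblast markers were higher beside TAGLN. Of 10 listed, 5 were tested and 5 passed as higher (26.7% of all genes tested). However, COL1A1, COL3A1 and LUM were below 1 FPKM in all sh-NC libraries. These 3 entered the test only through sh-CLGN, so their direction was fixed by the filter. The summed level of the list was 7.17 to 8.51 FPKM in sh-NC against 48.5 to 49.9 FPKM in sh-CLGN. COL1A2, a chain of type I collagen and the largest term of that sum, went from 4.20 ± 0.561 to 38.7 ± 0.614 FPKM (log2 difference 2.94, adjusted p = 4.15e-07). Given as values only, COL1A1 had 0.327 ± 0.0584 and 3.29 ± 0.143 FPKM, COL3A1 0.265 ± 0.0426 and 1.67 ± 0.112 FPKM, and LUM, the lumican gene, 0.304 ± 0.164 and 1.75 ± 0.232 FPKM (sh-NC then sh-CLGN, SD, n = 3 each). The fifth gene, PDGFRB, rose by 0.27 (adjusted p = 0.0334), but lost its call without sh-NC replicate 1 or 3 (0.29 and 0.20) and without sh-CLGN replicate 2 or 3 (0.26 and 0.22). Of the listed markers that were not tested, PDGFRA had 46 to 70 reads in sh-NC against 136 to 179 in sh-CLGN, without overlap. FAP and POSTN had 0 reads in every library, and DCN and THY1 at most 1. The part of such cells in the TAGLN values was not tested.

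The 5 genes whose levels were nearest to TAGLN over the 6 libraries, by Euclidean distance of log2(FPKM + 1), were ANXA1 (distance 1.23), LINC02365 (1.29), COL12A1 (1.37), HJV (1.50) and MT1B (1.56). The search used these same values, so a gene near TAGLN has to be low in sh-NC and high in sh-CLGN. The levels of these 5 genes therefore describe the search. ANXA1, the annexin A1 gene, had 1.11 to 1.47 FPKM in sh-NC against 13.0 to 14.0 FPKM in sh-CLGN, and COL12A1, a fibril-associated collagen, had 0.919 to 1.26 and 9.75 to 11.2 FPKM. HJV, which encodes the hepcidin regulator hemojuvelin, had 1.13 to 1.33 and 9.68 to 10.8 FPKM. LINC02365 went from 10 to 28 reads up to 189 to 245 reads. MT1B, a metallothionein, rests on 2 to 5 reads in sh-NC and has close paralogs, so its reads are uncertain. It was below 1 FPKM in all sh-NC libraries and passed the filter only through sh-CLGN. None of the other 9 genes of the set was among these 5.

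No tested gene within 50 kb of TAGLN on chromosome 11 was called higher in sh-CLGN, and AP000892.3, with 0 to 3 reads, was not tested. SIDT2, ending 1876 bases before TAGLN on the same strand, fell by 0.55 on the log2 scale (adjusted p = 0.000245) and PAFAH1B2 by 0.25 (adjusted p = 0.0074). PCSK7, which overlaps the end of TAGLN by 446 bases on the other strand, had −0.18 without passing, and RNF214 had 0.09 without passing. PCSK7 held 473 to 527 reads in sh-NC against 426 to 456 in sh-CLGN, while TAGLN went from at most 34 to at least 1017.

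A match of the hairpin's seed in the 3′ UTR was looked up as a further sequence feature. The 7 bases TACCACA, which would pair with positions 2 to 8 of a guide complementary to the sh-CLGN target given in the study's methods, were in an annotated 3′ UTR of 1 of the 10 genes, TPM1, and 10.5% of 10869 tested genes with a 3′ UTR held it. SRF, the gene of the set that was lower, held none.

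**Figure D5:**
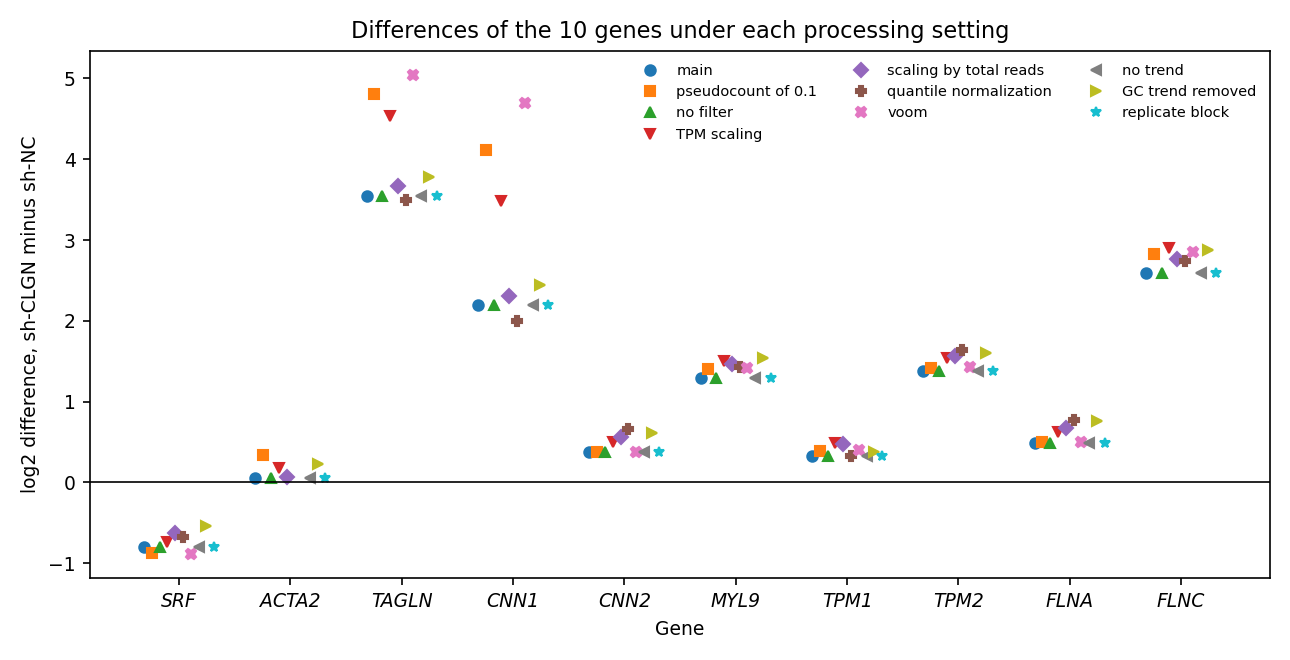
Log2 difference, sh-CLGN minus sh-NC, of each of the 10 genes under the main processing and 9 alternatives (symbols). No gene changes sign where it has a value, SRF lies between −0.88 and −0.53, and TAGLN (3.49 to 5.05) and CNN1 (up to 4.70) spread most. ACTA2, near the limit of detection, has no value with quantile normalization or voom.

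No difference of the 10 genes changed sign under any processing alternative that gave it a value. ACTA2 had no value with quantile normalization or voom. Its other values (0.03 to 0.34) rest on 1 to 5 reads, so their sign says little. Over all alternatives and left-out libraries, FLNC ran from 2.53 to 2.90, TPM2 from 1.31 to 1.64 and MYL9 from 1.25 to 1.55. FLNA ran from 0.44 to 0.77, CNN2 from 0.31 to 0.67 and TPM1 from 0.30 to 0.49. SRF came closest to 0 after removal of the GC trend (−0.53). The values of TAGLN rose to 4.80 with a pseudocount of 0.1 and to 5.05 with voom on the recovered reads, and those of CNN1 to 4.11 and 4.70.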

How the data were processed

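Per the labels, RNA from 6 Hep-G2 libraries was sequenced after a NEBNext Ultra preparation. The authors deposited a gene-level FPKM table, 1 column per library, which also holds each gene's length and position. The submitters' processing notes name HISAT2 2.0.5, featureCounts and GRCh38. The strand and multiply mapped read settings and the way the FPKM library sizes were set are not given in the sources used here. All 58735 genes equalled GENCODE 29 in start and end. The table held 0 columns of other samples.

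The 10 genes and all lists were chosen with earlier results of these data known. The adjusted p-values printed for list genes and for the genes added below are therefore descriptive. Named are the 10 genes, the relatives, in each other list the 4 tested genes with the largest absolute difference, the 5 genes nearest to TAGLN, and CLGN. MRTFA, MRTFB, MYOCD, ROCK2, ELK4, the markers near 0, the genes next to TAGLN and those overlapping a gene of the set were added after their values were seen. AFP, FHL2 and PDGFRA were added in the same way. Some genes of these lists are not reported here.

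The 13074 genes that reached 1 FPKM in 3 or more libraries were fitted with limma 3.58.1 (R 4.3.3) on log2(FPKM + 1), with an intensity trend and Benjamini-Hochberg adjustment over all of them, two-sided. Calls used an adjusted p of at most 0.05, alone or with a log2 difference of at least 1. Whole reads were recovered from FPKM and gene length (tolerance 0.01). Reads are not independent molecules, so floors of 3 reads cover counting error only. Alternatives were a pseudocount of 0.1, no filter, TPM, total read scaling, quantile normalization, voom, no trend, a GC trend removed per library, a replicate block and each library left out. The fit and the motif search were tested on simulated data. Python 3.11.15 with numpy 2.4.6, pandas 2.3.3 and matplotlib 3.10.9 was used. Same-numbered libraries did not deviate together (correlations −0.02, −0.05 and −0.15), and the main fit used no pairing. So few libraries cannot exclude a pairing by number. The protein comparison planned for the families was not run, and promoter windows of TAGLN and MYL9 were not used here.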

Additional observations from a re-analysis of the deposited data

How the results depend on the processing

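The number of genes past both thresholds (821) was 1606 with a pseudocount of 0.1, 1426 after TPM rescaling and 1722 with voom. The median over the 10 genes (0.89) was 1.06 with TPM, 1.07 with total read scaling and 1.16 without the GC trend; quantile normalization and voom gave no median, since ACTA2 was outside their filter. Cytoskeletal targets past the adjusted p (7) numbered 13 with total read scaling and 15 with quantile normalization, and smooth muscle markers (1) numbered 2 with quantile normalization, voom or no trend. ACTN1 and MYH9, not called in the main fit, were called with the opposite sign in some alternatives. These were 0.16 for ACTN1 with total read scaling and 0.22 with quantile normalization. For MYH9 they were 0.23 with quantile normalization and 0.17 without the GC trend. APOB changed sign with quantile normalization (0.026) and lost its call there. Without a call, ACTN1 and MYH9 also changed sign with TPM (0.097 and 0.050), ACTN1 without the GC trend (0.13) and without sh-CLGN replicate 1 (0.017), MYH9 with total read scaling (0.12) and VCL without sh-NC replicate 1 (−0.0024). The cause was not tested. The replicate block gave 821 genes past both thresholds, and of the list genes it ended the calls of CFL1 (0.19) and PDGFRB (0.27) and changed no other. Of 61 list genes in 15 alternatives, 38 kept their side of the threshold in all with no change of sign in a call, 10 lost and 11 gained a call in some, and 4 (MYL6B, CFL1, PDGFRB and APOB) lost one without 1 library (CFL1 0.12 to 0.21 without sh-NC replicate 3 or any sh-CLGN library, APOB −0.26 without sh-CLGN replicate 1). With 3 libraries a group and few reads, ACTA2 and the sh-NC level of CNN1 are limited by depth.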
